A study of Homo sapiens with 18 samples.

Results

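The 30 genes described here encode proteins of the lysosome and of autophagy: 2 transcription factors, 4 lysosomal membrane proteins, 9 lysosomal enzymes and lumen proteins, 3 subunits of the V-ATPase, 5 autophagy initiation and nucleation factors, 3 factors of LC3 conjugation, and 4 members of the LC3 family and its cargo receptors. They were chosen by name, as a list, out of 19775 genes measured, with earlier results of these data known. Shares of members called, set beside those of all genes, are therefore description only. Each gene was represented by its brightest probe set among those annotated to that gene alone. All 30 were measured, and no filter on low signal was applied. RNA was measured on single-colour oligonucleotide arrays in 3 established cell lines labelled Hep3B, SNU449 and PLC (PLC/PRF/5), which derive from human hepatocellular carcinoma, in a study that evaluated ATAD2 as a target in that cancer. Each line gave 3 arrays after transfection of an siRNA against ATAD2, a bromodomain ATPase of chromatin, and 3 after a non-targeting control siRNA, 18 arrays in all. All cells were grown in RPMI medium and transfected with the same lipid reagent, and the samples are labelled as biological replicates. The labels call the treated samples knockouts, whereas the design describes siRNA, so they are knockdowns here. The labels give neither the siRNA sequences and their number nor the time between transfection and harvest.

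Lysosomes degrade material delivered by endocytosis and autophagy with hydrolases that work at the acid pH set up by the V-ATPase proton pump. In autophagy, the ULK1 kinase complex and the BECN1 lipid kinase complex start a membrane sheet, ATG5, ATG7 and ATG16L1 attach LC3 and GABARAP proteins to it, and cargo receptors such as SQSTM1 bring in the load before the closed vesicle fuses with a lysosome. TFEB and TFE3 are related transcription factors that move to the nucleus when nutrients or lysosomal function fail, and they bind an E-box, CACGTG, within the CLEAR element found near the start of many lysosomal genes. Their activity is set mainly by phosphorylation and location, which an mRNA measurement does not show.

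The promoter windows are shown because the CACGTG core is the feature through which TFEB and TFE3 could reach these genes. Windows from 250 bases before to 50 bases after the transcription start were taken from RefSeq (GRCh38.p14), and 23 of the 30 genes had at least 1, with 29 windows in all. CACGTG, which reads the same on both strands, was present in windows of 5 of these 23 genes (21.7%), compared with 2396 of all 27305 genes with a window (8.77%). The longer TCACGTG, searched on both strands and always containing CACGTG, was present in the same 5 (21.7%), compared with 4.49% of all genes. Among 133 other genes of the pathway with a window, 24.1% held CACGTG. The 5 windows follow, each written 5′ to 3′ on the strand of the gene with CACGTG in capitals.
MCOLN1, chr19:7522374-7522673, plus strand: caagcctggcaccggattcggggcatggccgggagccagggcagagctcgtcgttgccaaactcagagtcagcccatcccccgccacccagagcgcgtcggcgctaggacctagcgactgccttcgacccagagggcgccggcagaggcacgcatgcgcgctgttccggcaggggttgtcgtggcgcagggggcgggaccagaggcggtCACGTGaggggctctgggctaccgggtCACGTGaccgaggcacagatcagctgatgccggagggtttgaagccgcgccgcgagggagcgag
CTSD, chr11:1763878-1764177, minus strand: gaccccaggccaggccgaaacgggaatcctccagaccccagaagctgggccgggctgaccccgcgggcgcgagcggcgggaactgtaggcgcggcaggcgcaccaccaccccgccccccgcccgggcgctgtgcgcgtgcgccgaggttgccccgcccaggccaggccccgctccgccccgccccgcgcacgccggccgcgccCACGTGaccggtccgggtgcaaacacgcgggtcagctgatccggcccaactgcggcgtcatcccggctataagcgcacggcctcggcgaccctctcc
LAMP1, chr13:113296989-113297288, plus strand: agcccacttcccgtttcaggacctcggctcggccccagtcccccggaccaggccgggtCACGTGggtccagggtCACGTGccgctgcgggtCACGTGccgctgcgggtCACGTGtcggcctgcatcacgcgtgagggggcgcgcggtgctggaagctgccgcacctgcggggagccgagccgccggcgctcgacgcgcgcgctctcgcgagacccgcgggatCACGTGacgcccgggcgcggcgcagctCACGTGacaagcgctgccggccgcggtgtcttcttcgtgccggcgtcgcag
CTSA, chr20:45891085-45891384, plus strand: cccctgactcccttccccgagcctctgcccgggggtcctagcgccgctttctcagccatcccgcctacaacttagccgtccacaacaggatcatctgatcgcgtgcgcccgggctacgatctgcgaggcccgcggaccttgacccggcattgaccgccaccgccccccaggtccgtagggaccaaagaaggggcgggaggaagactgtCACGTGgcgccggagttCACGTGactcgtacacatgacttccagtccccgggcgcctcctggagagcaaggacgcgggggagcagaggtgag
ATP6V0D1, chr16:67481108-67481407, minus strand: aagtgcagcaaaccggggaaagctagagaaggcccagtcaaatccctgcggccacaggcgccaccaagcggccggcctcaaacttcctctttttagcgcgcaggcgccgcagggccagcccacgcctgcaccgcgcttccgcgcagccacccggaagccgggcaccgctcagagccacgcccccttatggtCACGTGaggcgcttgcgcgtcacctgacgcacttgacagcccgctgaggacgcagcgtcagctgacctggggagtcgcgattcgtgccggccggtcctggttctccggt

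LAMP1 held 6 copies of CACGTG in its window, starting at positions from -192 to -1 relative to the transcription start. MCOLN1 and CTSA held 2 each, and CTSD and ATP6V0D1 held 1 each. In the arrays labelled Hep3B, where most of the changes described below were measured, MCOLN1 rose, CTSD fell, and LAMP1, CTSA and ATP6V0D1 did not pass the test. The windows of TFEB, NPC1, CTSL, NPC2 and WIPI1, which rose there, held no CACGTG, which says only that these letters are not in those windows. CTSB, ATP6V1H and UVRAG, which also rose, had no window and could not be searched.

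Several features of the arrays bear on all results. The log2 change of ATAD2 was -3.80, -2.39 and -2.62 in the arrays labelled Hep3B, SNU449 and PLC, with adjusted p-values of 1.41e-10, 6.15e-07 and 3.04e-07 (limma). The line labels did not match the usual descriptions of those lines. The Hep3B line is known to make albumin and to have lost RB1, but the control arrays labelled Hep3B had a mean log2 signal of 3.03 for ALB and 9.47 for RB1, and those labelled SNU449 had 13.8 and 4.44. Of the 7 measured hepatocyte markers, ALB, APOA1, APOA2, APOB, TTR and SERPINA1 were higher on SNU449-labelled than on Hep3B-labelled control arrays, and FGB ran the other way, at 11.5 in Hep3B and 6.88 in SNU449. The lines are therefore named by their labels throughout. PLC control arrays had 10.6 for ALB. The log2 signal of the 5′ minus the 3′ control probe sets of actin and GAPDH, in which a more negative value goes with more degraded or incompletely copied RNA, was -1.15 and -1.09 on PLC ATAD2 siRNA arrays 1 and 3, whereas it lay between -0.59 and -0.44 on the other PLC arrays. Hep3B ATAD2 siRNA array 2 was at -0.42, with the other Hep3B arrays between -0.79 and -0.65, and SNU449 arrays lay between -0.41 and -0.30. In the PLC line, 4 of 7 measured hepatocyte markers fell with ATAD2 siRNA, and their mean log2 signal was 10.3 to 10.4 on control arrays and 9.84 to 9.96 on siRNA arrays. In the Hep3B-labelled line the mesenchymal marker SPARC rose by 0.83 on the log2 scale (adjusted p = 1.32e-07), more than any of the 30 members, and was the 1 of 7 in its list that passed. There the hepatocyte markers FGB (0.39) and APOA2 (-0.20), the leukocyte marker CD14 (0.49) and the endothelial marker PECAM1 (-0.25) also passed. Of the leukocyte list, 5 of 6 were measured, and PTPRC had means from 2.77 to 3.66 in every group, whereas LYZ read 2.37 on Hep3B, 12.1 on SNU449 and 11.1 on PLC control arrays. The part of these markers in the members' changes was not tested. In RNA from whole cultures, fewer cells of a kind and less RNA per cell cannot be told apart.

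In the line labelled Hep3B, 10 of the 30 genes passed an adjusted p of 0.05 after ATAD2 knockdown, 9 of them higher and 1 lower. The transcription factor TFEB, the cholesterol exporter NPC1, the cathepsin CTSL, the V-ATPase subunit ATP6V1H and the phosphoinositide-binding autophagy protein WIPI1 rose most, by 1.36-fold to 1.48-fold. MCOLN1, CTSB, NPC2 and UVRAG rose by 1.15-fold to 1.23-fold, and CTSD, the aspartic protease of the lysosome, was the only member that fell. Over all genes, 16.4% passed the same limma test in this line, 8.68% higher and 7.74% lower. That share includes dim genes, whereas the median signal of the members was 9.17, 9.16 and 9.20 on the control arrays. Without the dimmest 30% of genes, 27.2% of those left passed, and 14% were higher. Without the dimmest 50%, 36.8% passed, and 19.5% were higher. The median log2 change was 0.18 over the 30 members and -0.02 over all genes, and 22 members (73.3%) and 44.8% of all genes lay above 0. All 3 siRNA arrays lay above all 3 control arrays for 19 members, a pattern found in 15.5% of all genes, and below them for 1 member, GLA, a pattern found in 17.3% of all genes.

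**Figure D1:**
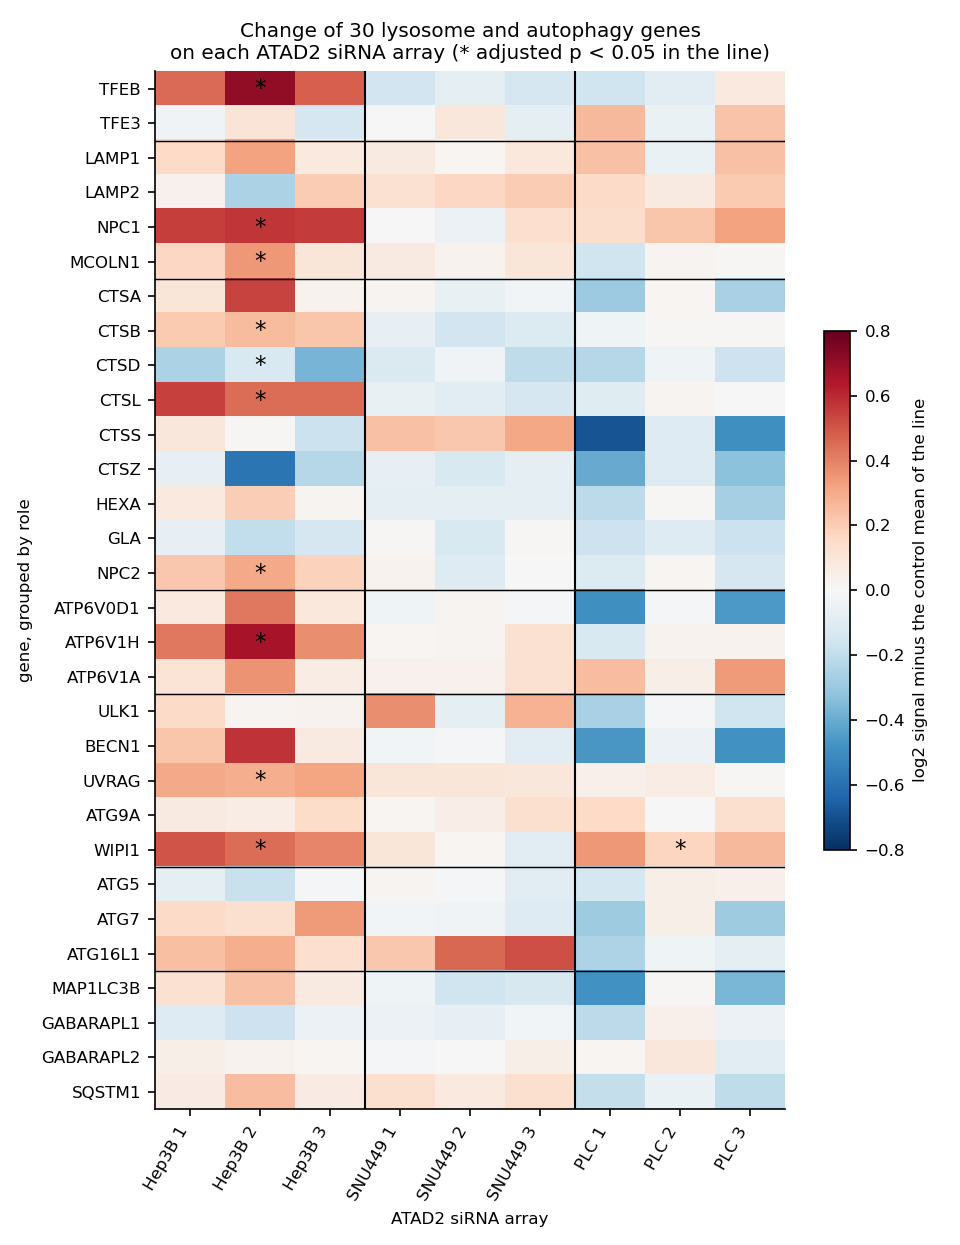
Heat map of the log2 signal of each of the 30 genes (vertical axis, grouped by role) on each of the 9 ATAD2 siRNA arrays (horizontal axis) minus the mean of the 3 control arrays of that line, red for higher and blue for lower, with an asterisk where the adjusted p was under 0.05. Of the 11 asterisks, 10 stand in the Hep3B columns and 1, for WIPI1, in the PLC columns.

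The size of the shift differed between the Hep3B-labelled siRNA arrays. Against the control mean, the median log2 change of the 30 members was 0.12, 0.25 and 0.08 on arrays 1, 2 and 3, and array 2 was also the array whose 5′ minus 3′ signal stood apart. Without array 2, 9 members passed, 8 higher and 1 lower, beside 15% of all genes, 8.35% higher. With the 5′ minus 3′ signal as a covariate 11 passed, among them all 10, and the share of all genes there is not given here. How the values are scaled between arrays moved the split of calls: 52.9% of all called genes were higher in the main analysis, 64.2% with the values as deposited and 75.1% with arrays centred on their medians. The members called were then 8 higher and 0 lower as deposited, and 13 higher and 0 lower with centring. Of all genes, 10.6% and 12.6% passed as higher in these 2 settings.

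**Figure D2:**
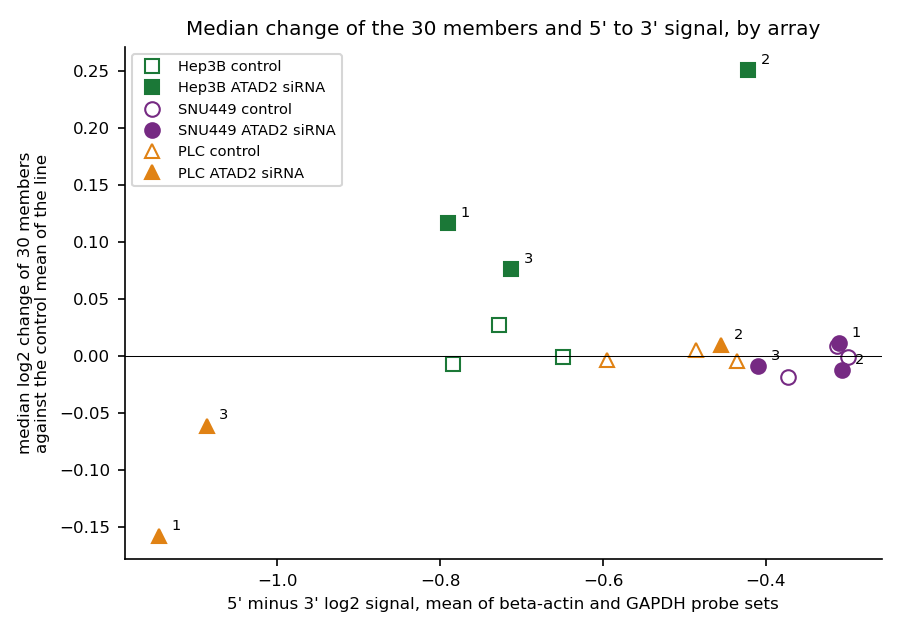
Median log2 change of the 30 members against the control mean of the line (vertical axis) on each of the 18 arrays, by the mean 5′ minus 3′ log2 signal of the actin and GAPDH control probe sets (horizontal axis), with open symbols for control and filled, numbered symbols for ATAD2 siRNA. Hep3B siRNA array 2 is highest at 0.25 and PLC siRNA arrays 1 and 3, with the most negative 5′ minus 3′ signal, are lowest at -0.16 and -0.06.

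Of the 2 transcription factors, TFEB rose and TFE3 did not pass the test in the Hep3B-labelled line. TFEB read 5.55, 5.61 and 5.72 (log2 signal) on control arrays and 6.08, 6.33 and 6.10 with siRNA. The groups did not overlap, and the log2 change was 0.55 ± 0.08 (SE, n = 3 arrays per group; 1.46-fold; limma, adjusted p = 8.66e-05). In SNU449, TFEB read 8.50, 8.49 and 8.55 on control and 8.36, 8.44 and 8.38 on siRNA arrays, with no overlap and a log2 change of -0.12 (adjusted p = 0.665), whose sign turned with centring of the arrays. In PLC it read 4.95, 5.03 and 4.88 against 4.79, 4.87 and 5.03, with overlap. The signal of TFE3 was 10.03, 10.09 and 10.12 on Hep3B-labelled control arrays and 10.05, 10.18 and 9.94 on siRNA arrays, so that the groups overlapped, and its log2 change was -0.02, 0.00 and 0.14 in Hep3B, SNU449 and PLC, with a sign in Hep3B that turned with the values as deposited and with centring. The second probe set of TFEB, given further on, did not pass. The values used here give no background level; the T-cell gene CD3E read 6.28 and the endothelial gene VWF 5.17 on Hep3B control arrays, on either side of TFEB.

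Among the lysosomal membrane proteins, NPC1, which passes cholesterol out of the lysosome, rose in the Hep3B-labelled line with no overlap. Its log2 signal was 9.42, 9.22 and 9.23 on control arrays and 9.85, 9.86 and 9.85 on siRNA arrays, a change of 0.56 ± 0.06 (SE, n = 3 per group; 1.48-fold; limma, adjusted p = 1.22e-05). In PLC, NPC1 read 10.14, 10.15 and 10.16 on control and 10.29, 10.37 and 10.47 on siRNA arrays, again with no overlap, and its log2 change of 0.23 had an adjusted p of 0.0544. In SNU449 the NPC1 arrays overlapped, with a log2 change of 0.03. MCOLN1, a calcium channel of the lysosome, read 6.39, 6.45 and 6.51 on Hep3B-labelled control and 6.61, 6.80 and 6.54 on siRNA arrays. These groups were separated by a narrow gap, and the log2 change of 0.20 ± 0.07 had an adjusted p of 0.0435. The MCOLN1 call was lost in 18 of 30 alternative settings, with adjusted p up to 0.187 when siRNA array 2 was left out. It was also lost without siRNA array 1 (0.0586), without control array 1 (0.15) or 2 (0.107), and without any single SNU449 array or PLC control array (0.0532 to 0.0578). The abundant membrane glycoproteins LAMP1 and LAMP2 had log2 changes of 0.19 and 0.00 in this line and did not pass, and the sign for LAMP2 turned with the scaling.

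Of the 9 enzymes and lumen proteins, 3 rose and 1 fell in the Hep3B-labelled line. CTSL, a cysteine protease, read 10.14, 10.15 and 10.18 on control and 10.70, 10.60 and 10.60 on siRNA arrays. The gap between the groups was several times the spread within either, and the log2 change was 0.48 ± 0.05 (SE, n = 3 per group; limma, adjusted p = 5.11e-06), the lowest adjusted p of the 30 genes. CTSB, the cysteine protease cathepsin B, read 10.67, 10.71 and 10.69 on control and 10.90, 10.94 and 10.91 on siRNA arrays, a log2 change of 0.23 ± 0.04 (adjusted p = 0.00138). NPC2, a soluble cholesterol carrier that works with NPC1, read 11.10, 11.03 and 11.12 on control and 11.29, 11.38 and 11.27 on siRNA arrays, with no overlap. Its log2 change was 0.23 ± 0.06 with an adjusted p of 0.00972, which became 0.0528 without control array 2.

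CTSD went the other way in the Hep3B-labelled line, at 7.68, 7.82 and 7.91 on control and 7.55, 7.68 and 7.43 on siRNA arrays, where the highest siRNA array met the lowest control array. Its log2 change was -0.25 ± 0.07 (SE, n = 3 per group; limma, adjusted p = 0.0291). The CTSD call was lost with the values as deposited (adjusted p = 0.19) and with centring (0.369), and also without siRNA array 1 (0.0675) or 3 (0.134) or control array 2 (0.0888) or 3 (0.142). CTSZ, a carboxypeptidase, read 10.40, 10.29 and 10.15 on control and 10.22, 9.70 and 10.05 on siRNA arrays, a log2 change of -0.29 with an adjusted p of 0.0698. The remaining CTSA, CTSS, HEXA and GLA had log2 changes between -0.13 and 0.22 and did not pass.

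The 3 V-ATPase subunits all had log2 changes above 0 in the Hep3B-labelled line, and 1 passed the test. ATP6V1H, a regulatory subunit of the cytosolic V1 sector, read 9.15, 9.18 and 9.21 on control and 9.61, 9.84 and 9.55 on siRNA arrays, a log2 change of 0.48 ± 0.07 (SE, n = 3 per group; limma, adjusted p = 0.000118). ATP6V1A, the catalytic subunit, read 9.45, 9.47 and 9.51 on control and 9.59, 9.84 and 9.54 on siRNA arrays. Its groups did not overlap, but siRNA array 2 lay well above the others, and the log2 change of 0.18 had an adjusted p of 0.16. ATP6V0D1, of the membrane sector, had a log2 change of 0.20 with an adjusted p of 0.266.

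Of the 5 initiation and nucleation factors, UVRAG and WIPI1 rose in the Hep3B-labelled line. WIPI1 read 8.74, 8.80 and 8.91 on control and 9.32, 9.27 and 9.21 on siRNA arrays, a log2 change of 0.45 ± 0.06 (SE, n = 3 per group; limma, adjusted p = 0.000114). UVRAG, a partner of BECN1, read 6.20, 6.16 and 6.0 on control and 6.43, 6.42 and 6.44 on siRNA arrays. The siRNA arrays were almost identical and all above the controls, and the log2 change was 0.30 ± 0.07 (limma, adjusted p = 0.00605). UVRAG had 1 probe set, and its control mean of 6.12 lay between those of VWF (5.17) and CD3E (6.28) in this line. BECN1 read 8.83, 8.82 and 8.88 on control and 9.07, 9.42 and 8.92 on siRNA arrays, and its log2 change of 0.29 had an adjusted p of 0.099. ULK1 and the vesicle protein ATG9A had log2 changes of 0.07 and 0.09. None of the 7 genes for LC3 conjugation and the LC3 family passed in this line. ATG16L1 (0.22), ATG7 (0.21), MAP1LC3B (0.14), SQSTM1 (0.13) and GABARAPL2 (0.03) had log2 changes above 0, and ATG5 (-0.09) and GABARAPL1 (-0.10) below 0, though just above 0 with centring.

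**Figure D3:**
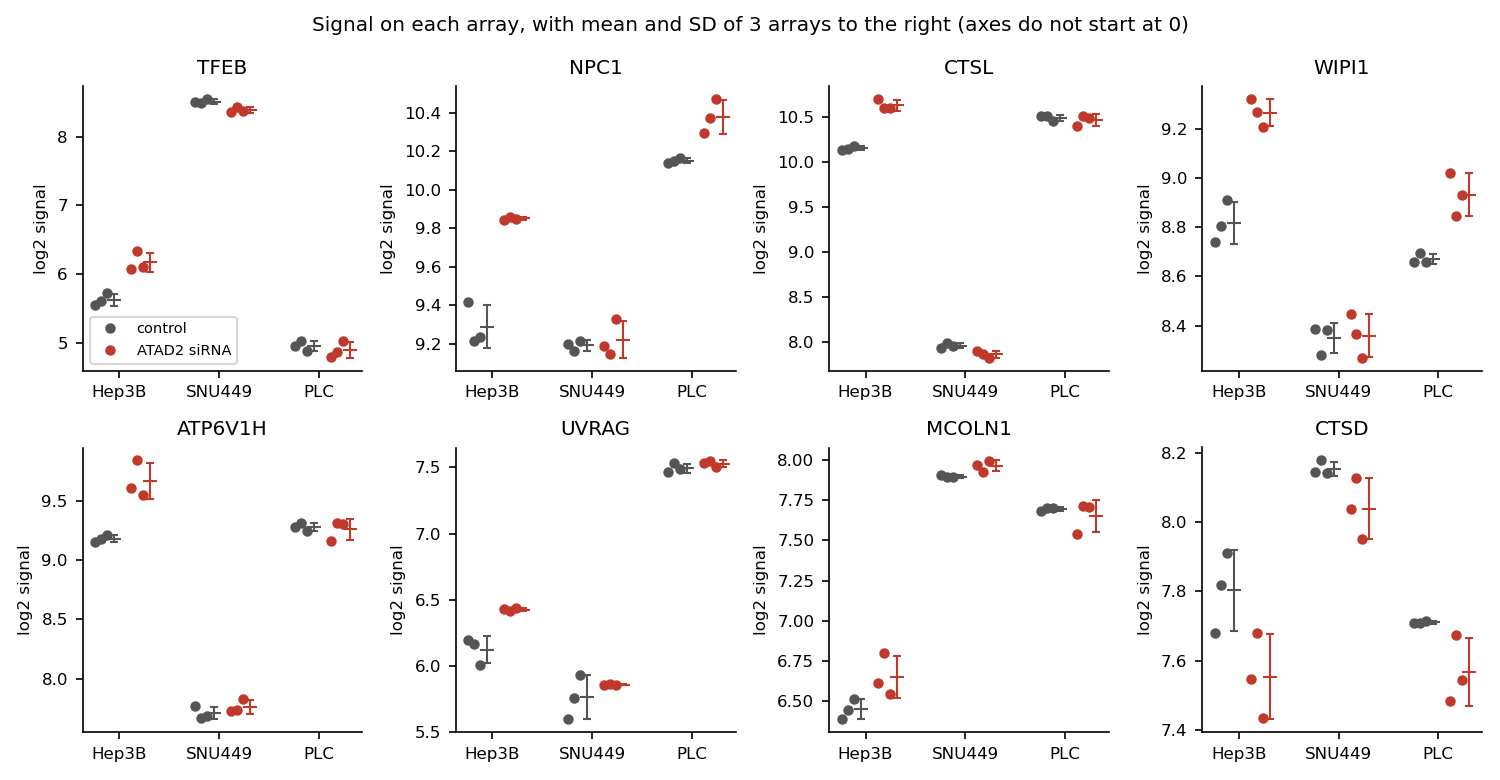
Log2 signal of 8 of the members (vertical axis, not starting at 0) on each of the 18 arrays by line label (horizontal axis), grey for control and red for ATAD2 siRNA, with the mean and SD of the 3 arrays to the right of the points. In Hep3B the red points lie above the grey ones for all genes shown except CTSD, while in SNU449 and PLC the 2 colours overlap for several of the genes.

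In the line labelled SNU449, 0 of the 30 members passed in the limma fit, against 0.258% of all genes (51 genes). At an unadjusted p under 0.05 there were 3 members, CTSS and ATG16L1 higher and CTSB lower. The share of all genes at that unadjusted level was not computed, so nothing is read from this count. When the dimmest 30% of genes were left out, 1 member (ATG16L1) passed, beside 1.05% of the genes left. The median log2 change of the members was -0.0031, and 15 of them (50%) lay above 0, with signs that turned with the scaling for 14, all of which lay below 0. ATG16L1, a scaffold of the LC3 conjugation complex, read 5.48, 5.31 and 5.53 on control and 5.65, 5.90 and 5.95 on siRNA arrays, with no overlap. Its log2 change of 0.40 ± 0.09 had an adjusted p of 0.0973, the lowest of the members here. CTSS read 5.82, 6.04 and 5.78 on control and 6.12, 6.09 and 6.19 on siRNA arrays, a log2 change of 0.25 with an adjusted p of 0.483 (limma). The control means of ATG16L1 (5.44) and CTSS (5.88) lay between those of VWF (4.99) and CD3E (6.15) in this line. The siRNA arrays lay above all control arrays for 6 members and below them for 7, compared with 8.76% and 13.2% of all genes. ATAD2 itself read 6.83 on the siRNA arrays of this line and 5.17 in the Hep3B-labelled line, and 7.09 in PLC.

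In PLC, 1 of the 30 members passed, WIPI1, against 4.57% of all genes, of which 2.34% were higher and 2.24% lower. WIPI1 read 8.66, 8.70 and 8.66 on control and 9.02, 8.84 and 8.93 on siRNA arrays, with no overlap, and a log2 change of 0.26 ± 0.06 (SE, n = 3 per group; limma, adjusted p = 0.0335). Most other members lay below 0 without passing the test. The median log2 change was -0.06, against 0.01 for all genes, and 9 members (30%) lay above 0. CTSS, a cysteine protease, read 7.39, 7.44 and 7.40 on control and 6.72, 7.31 and 6.92 on siRNA arrays, a log2 change of -0.43 with an adjusted p of 0.0504. The siRNA arrays lay above all control arrays for 4 members and below them for 5, compared with 10.8% and 9.11% of all genes.

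These PLC values moved with the 2 siRNA arrays of low 5′ minus 3′ signal. The median change of the members was -0.16 and -0.06 on siRNA arrays 1 and 3 and 0.01 on array 2, whose 5′ minus 3′ signal lay within that of the controls. Without array 2, 13 members passed, 5 higher and 8 lower. The share of all genes called in that setting is not given here, so nothing is read from this count. Arrays of another line also moved the count of members called in PLC through the shared spread. It was 2 without Hep3B control array 1 and 3 without Hep3B siRNA array 2, beside 3.7% and 5.78% of all genes. With array 2 as the only siRNA array, or with the 5′ minus 3′ signal as a covariate, 0 passed, and with the covariate the median was 0.00. MAP1LC3B, the LC3 protein most used as a marker of autophagosomes, shows the pattern at 10.24, 10.18 and 10.17 on control and 9.71, 10.20 and 9.83 on siRNA arrays, where only array 2 overlapped the controls. The main probe set of BECN1 did the same, at 8.56, 8.62 and 8.67 on control and 8.15, 8.57 and 8.13 on siRNA arrays. A further BECN1 probe set, brighter in PLC with a control mean of 9.14, read 9.09, 9.10 and 8.98 on siRNA arrays, a log2 change of -0.08. The second MAP1LC3B probe set had a log2 change of -0.06. The mean of the hepatocyte markers was lower than on all controls on array 2 as well as on arrays 1 and 3. The part of this fall, and of RNA quality, in the PLC values was not tested further. The WIPI1 call ended without any one of PLC control arrays 1, 2 and 3 (adjusted p = 0.0861, 0.0719 and 0.0871) or siRNA arrays 1 and 3 (0.124 and 0.0717), and with centring (0.0517), with the covariate (0.23) or with the mean of both probe sets (0.567). Of all genes called in PLC, 51.1% were higher in the main analysis, 34.5% with the values as deposited and 22.6% with centring. With centring, 0 members were higher and 4 lower, beside 4.81% of all genes called.

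The response to the siRNA differed between the lines for 9 members by an F test over the 3 changes (limma, adjusted p under 0.05), compared with 9.18% of all genes. They were TFEB, NPC1, CTSB, CTSL, CTSS, NPC2, ATP6V1H, WIPI1 and ATG16L1. CTSL gave the lowest adjusted p, 0.000128, with log2 changes of 0.48, -0.09 and -0.02 in Hep3B, SNU449 and PLC. TFEB (adjusted p = 0.00135) had 0.55, -0.12 and -0.06. NPC1 (0.00406) had 0.56, 0.03 and 0.23, and WIPI1 (0.0155) had 0.45, 0.01 and 0.26, so that for both the PLC value lay between the others. For CTSS (0.0405) and ATG16L1 (0.0482) it was not Hep3B that stood out, with -0.03, 0.25 and -0.43 for CTSS and 0.22, 0.40 and -0.12 for ATG16L1.

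By pairs of lines, the change was lower in SNU449 than in the Hep3B-labelled line for 6 members (TFEB, NPC1, CTSB, CTSL, ATP6V1H and WIPI1) and higher for 0, against 3.21% of all genes lower and 2.93% higher (6.14% together). It was lower in PLC than in the Hep3B-labelled line for 10 members and higher for 0, against 4.94% of all genes lower and 4.76% higher (9.7% together). These 10 were TFEB, NPC1, CTSB, CTSL, NPC2, ATP6V0D1, ATP6V1H, BECN1, ATG7 and MAP1LC3B. Both comparisons use the same Hep3B-labelled arrays, so that their lists share those arrays. Between SNU449 and PLC, 0 members passed, against 0.106% of all genes higher in SNU449 and 0.0961% lower (0.202% together). When PLC siRNA array 2 was left out, the F test called 15 members, with no share of all genes computed beside it.

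For the mean of the 3 changes, 8 members passed (26.7%), 6 higher and 2 lower, against 13% of all genes, 6.8% higher and 6.24% lower. Without the dimmest 30% and 50% of genes, 22% and 30.5% of those left passed. NPC1, CTSL, ATP6V1H, ATP6V1A, UVRAG and WIPI1 were higher, and CTSD and CTSZ lower. NPC1 had a mean log2 change of 0.27 ± 0.04 (SE; limma, adjusted p = 0.000126) and WIPI1 of 0.24 ± 0.04 (0.00043). ATP6V1A had a mean of 0.15 ± 0.05 (0.038), with changes of 0.18, 0.06 and 0.21 in the 3 lines, and siRNA arrays above all controls in each, by less than the rounding in SNU449. On PLC the ATP6V1A arrays read 9.51, 9.44 and 9.45 against 9.72, 9.52 and 9.81, and on SNU449 10.85, 10.84 and 10.77 against 10.85, 10.86 and 10.94. CTSZ had a mean of -0.22 ± 0.06 (0.0241) with changes of -0.29, -0.09 and -0.28, and CTSD of -0.17 ± 0.04 (0.0151) with -0.25, -0.12 and -0.14. The CTSL and ATP6V1H means rested on the Hep3B-labelled line, since their changes in the others lay between -0.09 and 0.05. The ATP6V1A call was lost in 20 of 29 alternative settings (adjusted p up to 0.356), among them the omission of any single array except Hep3B siRNA arrays 1 and 3 and PLC siRNA array 2 (0.0501 to 0.0795). By scaling, the CTSD call was lost with the values as deposited (0.0581) and with centring (0.124), that of CTSZ with centring (0.0603) and with averaged probe sets (0.141), and that of UVRAG with the values as deposited (0.0599). The UVRAG call was also lost without Hep3B control array 3 (0.0577) or PLC control array 1 (0.0527), and the CTSZ call without Hep3B control array 1 (0.0511). With PLC siRNA array 2 as the only PLC siRNA array, 5 members passed, and CTSD, CTSZ, UVRAG and ATP6V1A were not among them. The second CTSZ probe set had a mean change of -0.01. The ATP6V1H call was lost with the mean of all probe sets (0.811).

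Other probe sets of the same genes did not always follow the brightest one. Of the 10 members called in the Hep3B-labelled line, 5 had 1 probe set only (MCOLN1, CTSD, CTSL, NPC2 and UVRAG) and 5 had 11 further ones. Of these 11, 9 had the sign of the main probe set and 1 passed an adjusted p of 0.05 over all 54675 probe sets, a level passed by 8.86% of them. That one was the second probe set of WIPI1, with 8.20, 8.15 and 8.25 on control and 8.77, 8.71 and 8.64 on siRNA arrays. The second probe set of TFEB, with a control mean of 5.69 near that of the main one at 5.63, had a log2 change of -0.05 in this line (adjusted p = 0.932), so that the rise of TFEB rests on 1 probe set. Both further ATP6V1H probe sets were dim, at control means of 3.58 and 4.66, and had log2 changes of 0.03 and -0.11. With all probe sets of each gene averaged, the calls of CTSB (adjusted p = 0.101) and ATP6V1H (0.14) were lost. In PLC the second WIPI1 probe set had a log2 change of -0.13, opposite to the main one, with 8.17, 8.20 and 8.22 on control and 7.88, 8.43 and 7.92 on siRNA arrays.

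Of the 41 further probe sets of all 30 members, 3 passed as higher and 1 as lower in the Hep3B-labelled line, which is 4 of 41 beside the 8.86% of all probe sets that passed there. The lower one was 1 of the 4 probe sets of LAMP2, chosen here after its values were seen. It read 7.97, 8.10 and 8.14 on control and 6.41, 7.11 and 6.49 on siRNA arrays, a log2 change of -1.40 ± 0.13 (SE, n = 3 per group; limma, adjusted p = 2.37e-06 over all probe sets). The other LAMP2 probe sets had changes of 0.00, -0.15 and -0.18 there, and the probe set itself had 0.01 in SNU449 and -0.15 in PLC. Second probe sets of BECN1 (0.33, adjusted p = 0.00791) and MAP1LC3B (0.21, 0.0254) passed in the Hep3B-labelled line, where the main ones had not. The MAP1LC3B set read 10.29, 10.26 and 10.24 on control and 10.47, 10.46 and 10.47 on siRNA arrays. In PLC, further probe sets of ATG5 (-0.42, 0.0412) and SQSTM1 (-0.35, 0.0287) passed as lower, 2 of 41 beside 3.44% of all probe sets, and for ATG5 it was again siRNA arrays 1 and 3 that lay low, at 7.55 and 7.50 against 8.05 on array 2 and 8.07 to 8.20 on controls.

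**Figure D4:**
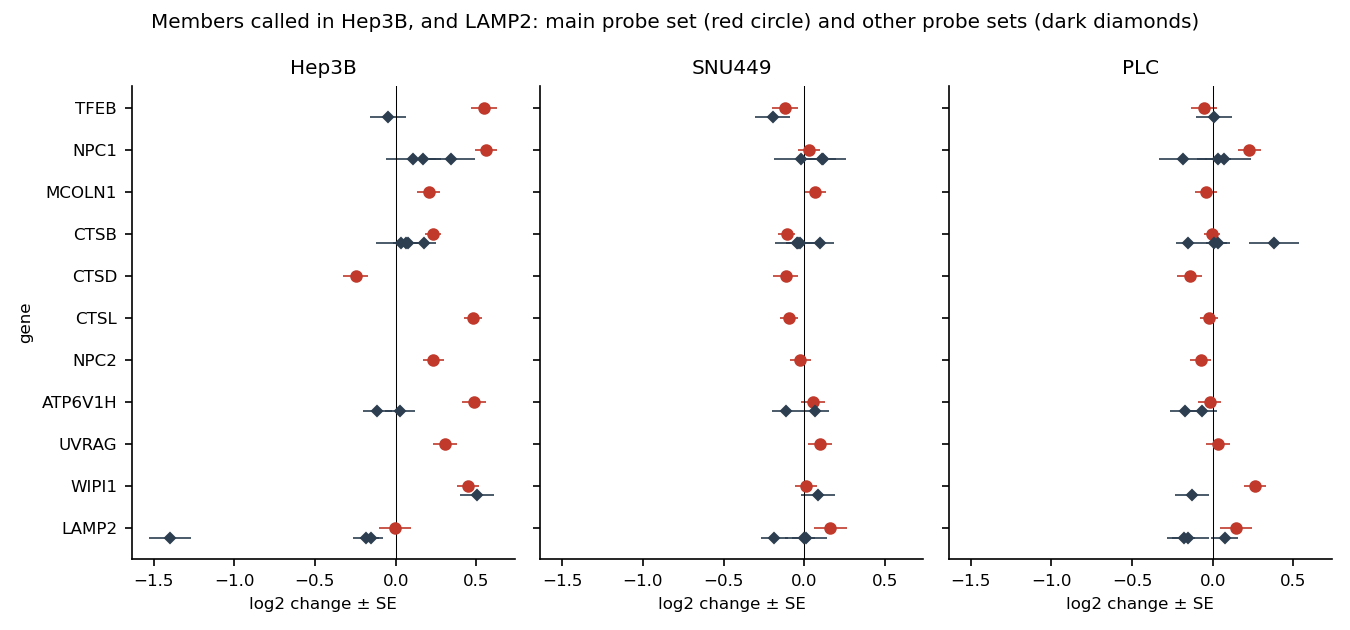
Log2 change with ATAD2 siRNA (horizontal axis, ± SE from the fit) of every probe set of the 10 members called in Hep3B and of LAMP2 (vertical axis), 1 panel per line, with red circles for the main probe set and dark diamonds for the others. In the Hep3B panel the second TFEB probe set lies at -0.05 against 0.55 for the main one, and 1 LAMP2 probe set lies at -1.40.

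The members also differed between the lines without ATAD2 siRNA. On control arrays, PLC was the highest of the 3 lines for 13 members, the Hep3B-labelled line for 9 and the SNU449-labelled line for 8. The SNU449-labelled line was the lowest for 18. These ranks are from the main scaling and changed with centring, where for instance CTSB and MAP1LC3B, highest in Hep3B here, were higher in PLC. The same counts over all genes were not computed, so nothing is read from them. With an adjusted p under 0.05 and an absolute log2 difference of at least 1, SNU449 exceeded Hep3B for 3 members and lay below it for 6, against 9.24% and 10.5% of all genes (19.7% together). PLC exceeded Hep3B for 6 members and lay below it for 2, against 9.58% and 8.83% (18.4% together). SNU449 exceeded PLC for 3 members and lay below it for 11, against 8.63% and 10.5% (19.2% together). Without the dimmest 50% of genes, the shares together were 27.6%, 24.4% and 25.9% in these 3 comparisons. The 3 comparisons share their control arrays, and values were set on 1 scale by quantile normalization, since the deposited columns differed by up to 1.51 log2 units between lines at the same rank. With the values as deposited the median of all genes was -0.62 in PLC minus Hep3B and 0.76 in SNU449 minus PLC. With centring it was 0.62 and -0.69. Differences with PLC therefore depend on the scaling, and single members moved by more than these medians. In SNU449 minus PLC, LAMP1 had 0.03 in the main analysis and -1.52 with centring, and ATP6V1A had 1.35 and -0.20. With centring, 21 members passed in PLC against Hep3B and 24 in SNU449 against PLC, beside 41.6% and 43.4% of all genes.

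TFEB and GABARAPL1, an LC3-family protein, differed most. TFEB read 8.50, 8.49 and 8.55 on SNU449 control arrays, 5.55, 5.61 and 5.72 on Hep3B and 4.95, 5.03 and 4.88 on PLC, in that order with no overlap between neighbours. The difference was 2.89 log2 units between SNU449 and Hep3B (2.47 to 2.72 with other scalings) and 3.56 between SNU449 and PLC (3.08 to 4.56). The second TFEB probe set had the same order with smaller gaps, at control means of 7.48, 5.69 and 5.53. GABARAPL1 read 8.63, 8.78 and 8.70 on Hep3B, 7.57, 7.60 and 7.58 on PLC and 5.30, 4.98 and 5.17 on SNU449, a difference of -3.55 log2 units between SNU449 and Hep3B (-3.14 to -2.94 with other scalings). Its second probe set had control means of 7.72, 7.34 and 5.39, and the gap between PLC and Hep3B was near 0 with centring (-0.0073). Signals near 5, as of TFEB in PLC and GABARAPL1 in SNU449, lay within or just below the range of CSF1R and VWF, markers of other cell types, at 4.99 to 5.36 on control arrays, so no fold is given for these genes. TFE3 had another order. It read 10.03, 10.09 and 10.12 on Hep3B, 9.59, 9.61 and 9.54 on PLC and 8.06, 8.06 and 8.11 on SNU449. With centring, TFE3 was higher in PLC than in Hep3B. The line with the most TFEB signal had the least TFE3 signal.

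Among the enzymes, CTSL read 10.52, 10.51 and 10.46 on PLC, 10.14, 10.15 and 10.18 on Hep3B and 7.94, 7.99 and 7.96 on SNU449, a difference of -2.53 log2 units between SNU449 and PLC (-3.98 to -2.45 with other scalings). GLA, the alpha-galactosidase lacking in Fabry disease, read 10.82, 10.87 and 10.86 on PLC, 9.02, 8.98 and 8.97 on Hep3B and 7.90, 8.20 and 8.06 on SNU449. CTSS read 7.39, 7.44 and 7.40 on PLC, 5.82, 6.04 and 5.78 on SNU449 and 5.37, 5.22 and 5.49 on Hep3B. A further CTSS probe set had Hep3B above SNU449, at control means of 5.65 and 4.97, with PLC at 6.63. None of these orders had overlapping neighbours in the main probe sets, and the differences of at least 2 log2 units named for these 6 genes kept their sign under every scaling tried. Neighbouring lines overlapped for LAMP1 (SNU449 and PLC), for LAMP2, NPC1 and ATG16L1 (Hep3B and SNU449), and for CTSD and ATP6V1A (Hep3B and PLC). The higher CTSZ and ATP6V1A signals of SNU449 against PLC, by 1.12 and 1.35 log2 units, changed sign with centring.

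**Figure D5:**
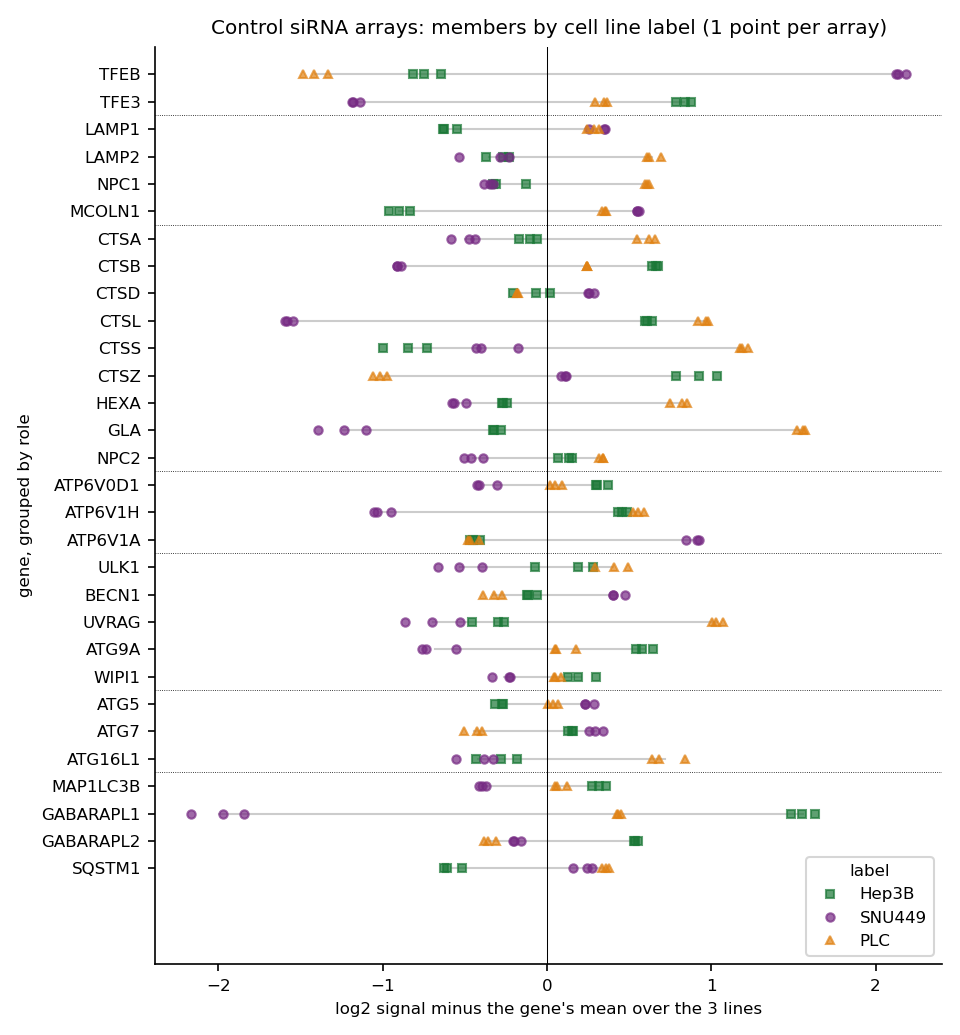
Log2 signal of each of the 30 genes (vertical axis, grouped by role) on each of the 9 control arrays minus the mean of the gene over the 3 lines (horizontal axis), with squares for Hep3B, circles for SNU449 and triangles for PLC. TFEB and GABARAPL1 span 3.56 and 3.55 log2 units between the highest and lowest line, with SNU449 highest for TFEB and lowest for GABARAPL1.

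Beyond the 30 members, 171 other genes of lysosomes and autophagy were listed, also with earlier results known, of which 159 had a probe set of their own. In the Hep3B-labelled line 48 passed, 35 higher (22%) and 13 lower (8.18%), against 8.68% and 7.74% of all genes. Without the dimmest 30% and 50% of genes, 14% and 19.5% of those left passed as higher. The share of the pathway genes called in these settings is not given here. The part of signal level in the gap to all genes was therefore not tested. The median log2 change of the 159 was 0.07. The 35 higher ones were spread over the roles: 11 of 33 enzymes and lumen proteins, 6 of 22 membrane proteins, 3 of 15 V-ATPase subunits, 5 of 24 nutrient-signalling genes and transcription factors, and 6 of 21 sorting and fusion genes. Of 14 cargo receptors, 0 were higher and 3 lower. Without any single array the count lay between 36 and 55.

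The largest changes in the Hep3B-labelled line exceeded those of the members. TECPR2, a protein of autophagosome formation, read 5.92, 5.62 and 5.69 on control and 7.45, 7.53 and 7.40 on siRNA arrays, a log2 change of 1.71 ± 0.07 (SE, n = 3 per group; limma, adjusted p = 1.97e-10), though its second probe set had 0.11 (adjusted p = 0.628). EPG5, which tethers autophagosomes to lysosomes, read 7.61, 7.51 and 7.54 against 8.76, 8.53 and 8.73, a log2 change of 1.12 (6.28e-08). FNIP2, a folliculin partner in nutrient signalling at the lysosome, had a change of 0.99 (2.47e-08), and PLA2G15, a lysosomal phospholipase, of 0.68 (1.22e-05). Lower were OSTM1, a partner of the lysosomal chloride exchanger, with 8.87, 8.93 and 8.96 against 7.50, 7.94 and 7.43 and a log2 change of -1.30 (1.02e-07), and TMEM41B, a lipid scramblase of the endoplasmic reticulum, with -0.90 (2.78e-08). The catalytic subunits of AMPK also fell, PRKAA1 by 0.66 (8.21e-05) and PRKAA2 by 0.65 (4.44e-05) on the log2 scale. A second probe set passed in the same direction for EPG5, FNIP2, OSTM1, TMEM41B, PRKAA1 and PRKAA2. Not all further probe sets followed. Those of PRKAA1 that did not pass had log2 changes of -0.0017, 0.03 and 0.45, and those of PRKAA2 had 0.09, 0.21 and -0.23. For EPG5 and FNIP2, 1 further probe set each had the opposite sign without passing (-0.13 and -0.06).

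In SNU449, 0 of the 159 passed in the limma fit. An unadjusted p under 0.05 was found for 19, a count with no share of all genes computed beside it. Leaving out the dimmest 50% of genes called 2, PLA2G15 and EPG5, beside 2.04% of the genes left. Fitting the line by itself called 1. In PLC 10 passed, 6 higher and 4 lower (6.29%, against 4.57% of all genes). Without the dimmest 30% and 50% of genes, 6.75% and 13.4% of those left passed in PLC. TECPR2 (0.38, adjusted p = 0.0116), RRAGD (0.33, 0.0116), a GTPase that binds the mTOR complex at the lysosome, GNPTAB (0.27, 0.0324), which makes the mannose 6-phosphate tag of lysosomal enzymes, and HGSNAT (0.27, 0.03), an acetyltransferase of heparan sulfate breakdown, were higher. The sialidase NEU1 (-0.40, 0.0412), the BECN1 complex protein NRBF2 (-0.33, 0.0121), the cathepsin CTSV (-0.30, 0.0335) and the sulfatase ARSA (-0.30, 0.0308) were lower. No further probe set of these named genes passed in PLC over all probe sets. Second probe sets had log2 changes of 0.095 for TECPR2, 0.16 for RRAGD, -0.40 for NRBF2 and -0.03 for ARSA. Those of GNPTAB had -0.04 and -0.07, and those of HGSNAT lay between -0.14 and 0.34. NEU1 and CTSV had no further one, and NEU1 had an adjusted p of 0.0521 (limma) over all probe sets. The low values of NEU1 stood on siRNA arrays 1 and 3, at 10.19 and 10.16, with 10.68 on array 2 and 10.73 to 10.75 on controls. With the 5′ minus 3′ signal as a covariate 1 of these genes passed, TECPR2, and without siRNA array 2 there were 44. Without any one of the other PLC arrays the count was 3 to 5, and without Hep3B siRNA array 2 it was 16, beside 5.78% of all genes. For the covariate and for the PLC arrays left out, no share of all genes is given here.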

How the data were processed

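Total RNA from 18 cultures was hybridised to single-colour arrays of 54675 probe sets. The authors deposited log2 signals between 1.33 and 14.0. Per the submitters' processing notes limma was used, with no version, and the normalization is not given in the sources used here. At the same rank, sorted values of arrays differed by at most 0.155 within a line but by as much as 1.51 across lines, and quantile normalization over all arrays was therefore applied. Of the probe sets 41097 had 1 gene, 1801 several and 11777 none, by the platform annotation with symbols updated through RefSeq. The brightest stood for each of 19775 genes. limma 3.58.1 in R 4.3.3 fitted 6 group means, with 12 residual and 4.01 prior degrees of freedom, which was tested on simulated data. Tests were two-sided with Benjamini-Hochberg adjustment over all genes and a threshold of 0.05, and control lines also needed an absolute log2 difference of at least 1. An exact permutation test of 3 against 3 arrays cannot go below 0.1, so none was used.

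The members and lists were chosen with earlier results of these data known. Members were given in full where they passed in a line, in the mean or in the F test, or differed by at least 2 log2 units between control lines. Up to 4 pathway genes per line and direction were named. Alternatives changed the normalization, the filter on dim genes, the probe sets, the arrays fitted, the prior, the replicate block and the threshold, and left out each array in turn. The covariate for the 5′ minus 3′ signal and the use of PLC siRNA array 2 alone were chosen after seeing the data. The number of arrays limits the precision.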

Additional observations from a re-analysis of the deposited data

Results flagged for a closer look

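The results below are those in which the change with ATAD2 siRNA differed between the lines by limma's F test, with p-values adjusted over all genes. Among the 30 members, the adjusted p was 0.00135 for TFEB, 0.00406 for NPC1, 0.00595 for CTSB, 0.000128 for CTSL, 0.0405 for CTSS, 0.0425 for NPC2, 0.00669 for ATP6V1H, 0.0155 for WIPI1 and 0.0482 for ATG16L1. Among the named genes of the wider pathway, it was 0.024 for PLA2G15, 6.8e-05 for OSTM1, 0.000228 for RRAGD, 5e-06 for FNIP2, 0.00664 for PRKAA1 and 0.00521 for PRKAA2. It was 6.29e-05 for EPG5, 2.2e-07 for TECPR2, 0.0111 for NRBF2 and 1.59e-06 for TMEM41B.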

How the results depend on the processing

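The count of members called in Hep3B lay between 7 and 13 over 12 alternative settings and between 7 and 14 when single arrays were left out. The calls of TFEB, NPC1, CTSL, UVRAG and WIPI1 there held in all 30 of these settings. In PLC the members called were 3 with the values as deposited, 3 with quantile normalization within each line, 4 with centring, 3 and 6 without the dimmest 30% and 50% of genes and 5 with an intensity trend and robust prior. They were 0 with the mean of all probe sets, each line by itself, the replicate block, a threshold of 0.01, the 5′ minus 3′ covariate or PLC siRNA array 2 alone, and 0 to 13 without single arrays. In SNU449, 1 passed without the dimmest 30% of genes. For the mean over lines, 3 passed at 0.01 and 5 with PLC siRNA array 2 alone, and 6 to 10 without single arrays. The F test called 16 with centring, 4 with the replicate block and 5 at 0.01, and 6 to 15 without single arrays. On control arrays, PLC against Hep3B gave 21 with centring and 4 with the mean of all probe sets, and SNU449 against PLC gave 24 and 9. Of all genes, 41.6% and 14.9% passed in the former comparison in these settings, and 43.4% and 15.7% in the latter. For the pathway genes in PLC, 18 passed with normalization within each line, 17 with centring, 21 without the dimmest 50%, 6 with the mean of all probe sets, 0 with each line by itself, 20 with the trend and robust prior, 4 with the replicate block, 0 at 0.01, 1 with the covariate and 1 with array 2 alone, and 3 to 44 without single arrays. In SNU449, 2 passed without the dimmest 50% and 1 with the line by itself. Other probe sets had the opposite sign for TFEB in Hep3B (-0.049), ATP6V1H in Hep3B (-0.11) and over the lines (-0.027 and -0.10), and WIPI1 in PLC (-0.13). With the replicate block, 7 members passed in Hep3B, 0 in SNU449, 0 in PLC and 6 in the mean. Same-numbered arrays deviated together with correlations from -0.12 to 0.09, and 4 of 9 arrays were nearest their own number. These were SNU449 array 3 and all PLC arrays, where the correlations were 0.093, 0.056 and 0.076. Whether same-numbered arrays were paired is not stated in the labels and is not settled for PLC. Where no share of all genes stands beside a count, nothing is read from it. The cause of these shifts was not tested.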
